A study of Bos taurus with 36 samples.

Results

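The proteasome genes of the bovine mammary gland were taken as all genes whose only symbol in the array annotation begins with PSMA, PSMB, PSMC, PSMD, PSME, PSMF or PSMG. This rule found 40 genes of the 9155 with a single symbol, and each was represented by its brightest probe set. Among them were 5 immunoproteasome genes, 26 constitutive subunits, 6 assembly chaperones and 3 other genes. The constitutive subunits comprised 6 alpha and 7 beta subunits of the 20S core, and 6 ATPase and 7 non-ATPase subunits of the 19S regulator. One of the 3 others, PSME3IP1, met the rule by its symbol only, since it encodes a protein that interacts with PSME3 and not a subunit. PSMA2, PSMD3, PSMD7, PSMD8, PSMD12, PSME3 and PSMG4 were not analysed here.

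Multiparous Holstein cows (n = 6) were milked 4 times daily (4×) on the right side of the udder and 2 times daily (2×) on the left side from d 1 to d 21 of lactation, and 2× on both sides from then on. Biopsies of both sides were taken on d 21, at the end of the 4× period, on d 23 and on d 40, each after both sides had been milked, so that 36 arrays gave 6 groups of 6 glands. On d 23 and d 40 the 4× glands were thus formerly 4× glands. Rear glands were sampled on d 21 and d 40 and fore glands on d 23, so that day and gland position cannot be told apart in any comparison with d 23. The paired glands shared a cow and its circulation, and each cow was its own control. The 4× glands were right and the 2× glands left in every cow, so that milking frequency and side cannot be told apart.

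Proteasomes are the main proteases that degrade ubiquitin-tagged proteins in the cytosol and nucleus. The barrel-shaped 20S core is built from rings of alpha and beta subunits, and its proteolytic sites lie on PSMB5, PSMB6 and PSMB7. In cells of lymphoid origin, and in other cells after exposure to interferon gamma, new cores are built with PSMB8, PSMB9 and PSMB10 in their place, and such immunoproteasomes favour peptides that fit MHC class I molecules. PSME1 and PSME2 form the ring-shaped PA28 activator, which interferon gamma also induces. The 19S regulator recognises ubiquitin chains (PSMD4), removes them (PSMD14) and unfolds the substrate with a ring of ATPases (PSMC1 to PSMC6). In the lactating gland the secretory cells synthesise very large amounts of milk protein, and the proteasome also clears misfolded proteins returned from their endoplasmic reticulum.

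The immunoproteasome genes lie at 3 places in the bovine genome, by the gene order of RefSeq assembly ARS-UCD2.0. PSMB8 and PSMB9 lie on either side of TAP1 on chromosome 23, beside TAP2 and among MHC class II genes. PSME2 and PSME1 lie together on chromosome 10 with only EMC9 between them, and IRF9, an interferon signalling factor, is close by. PSMB10 lies apart on chromosome 18. PSMB5, the constitutive counterpart of PSMB8, is the direct neighbour of PSMB11 on chromosome 10.

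Every proteasome gene was measured above the dim range of the array. None of the 40 had a mean log2 signal under 5, a level that 7491 probe sets did not reach. Mean signals over the 36 arrays ran from 6.93 for PSMD10 to 11.47 for PSMA7, but signals of different probe sets do not give the order of transcript levels. Milk protein genes marked the tissue as lactating gland, with the mean over 11 epithelial markers between 12.61 and 12.90 in the 36 arrays, although the probe set used for KRT8 was dim (mean 5.07). The biopsies were whole tissue, in which fewer cells of one type and less RNA per cell cannot be told apart.

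Within a group, the immunoproteasome genes varied more between cows than the constitutive subunits did. The median within-group SD was 0.30 log2 units over the 5 immunoproteasome genes, 0.16 over the 26 constitutive subunits and 0.20 over all 9155 genes. PSMB9 (0.36), PSMB10 (0.35) and PSMB8 (0.30) were among the 5 most variable members. The other two were PSMC6 (0.36), an ATPase of the 19S base, and PSMA4 (0.33), an alpha ring subunit. PSME1 (0.19) and PSME2 (0.17) were no more variable than the typical gene. The median half-width of the 95% interval for 4× minus 2× was 0.26 for the immunoproteasome genes and 0.16 for the constitutive subunits.

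On d 21, after 3 weeks of unequal milking, the 3 members with the largest differences were immunoproteasome genes, of which PSMB10 and PSME1 passed an unadjusted p of 0.05 and had lower values in the 4× glands. The largest of the 40 differences was that of PSMB10, the subunit that takes the place of PSMB7. Its log2 signal was 7.94, 7.63, 7.57, 7.61, 7.95 and 8.35 in the 4× glands of cows 1 to 6, against 9.17, 7.89, 8.11, 7.95, 7.69 and 8.87 in their 2× glands. PSMB10 was lower in the 4× gland of 5 of 6 cows, but the groups overlapped, and the high values belonged to the 2× glands of cows 1 and 6. Its mean difference was -0.44 (SE 0.13, 95% interval -0.71 to -0.17, limma, unadjusted p = 0.00306, adjusted p = 0.181). Without cow 1, in which the difference was -1.23, it was -0.28 (limma, unadjusted p = 0.033).

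PSME1, the alpha subunit of PA28, had log2 signals of 10.40, 10.33, 10.25, 10.32, 10.44 and 10.57 in the 4× glands and 11.14, 10.44, 10.55, 10.29, 10.35 and 10.79 in the 2× glands on d 21. Its 4× glands lay close together, and its mean difference was -0.21 (SE 0.10, limma, unadjusted p = 0.0373, adjusted p = 0.283). That difference rested on single cows: it was -0.10 without cow 1 (limma, unadjusted p = 0.263), and the call was also lost without cow 2, 3 or 6. PSMB9, which replaces PSMB6, was 8.26, 7.62, 8.08, 8.24, 8.13 and 8.27 in the 4× glands, against 9.04, 7.85, 8.11, 8.51, 7.87 and 8.77 in the 2× glands. The mean difference of PSMB9, -0.26 (SE 0.13), did not pass the test (limma, unadjusted p = 0.0559, adjusted p = 0.327), although 5 of 6 cows had a lower value in the 4× gland, and it passed an unadjusted p of 0.05 without cow 3 or cow 5.

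PSMB8, which replaces PSMB5, was 8.57, 8.57, 8.67, 8.90, 8.31 and 8.83 in the 4× glands and 9.00, 8.59, 8.92, 9.03, 8.31 and 8.83 in the 2× glands of cows 1 to 6 on d 21. The differences in cows 2, 5 and 6 were close to 0, and the mean was -0.14 (SE 0.13, limma, unadjusted p = 0.299, adjusted p = 0.633). PSME2, the partner of PSME1 in PA28, was 8.64, 8.62, 8.49, 8.37, 8.60 and 8.74 in the 4× glands, against 9.04, 8.49, 8.61, 8.50, 8.44 and 8.91 in the 2× glands. The difference of PSME2 was -0.09 (SE 0.08, limma, unadjusted p = 0.282, adjusted p = 0.618). All 5 immunoproteasome genes had a negative mean difference on d 21, with a median of -0.21, while the median over all genes was 0.01.

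**Figure D1:**
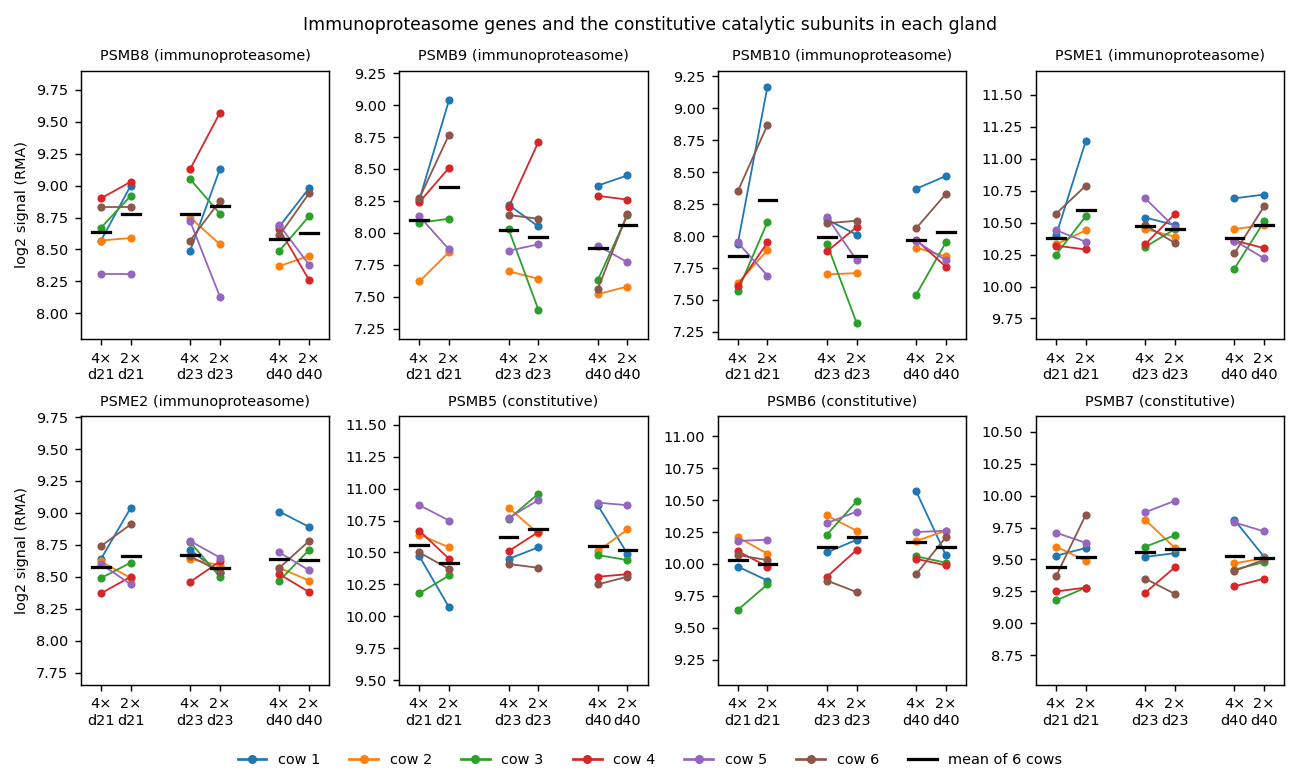
Log2 signal (RMA) of the 5 immunoproteasome genes and of the 3 constitutive catalytic subunits in each gland, with the 4× gland left of the 2× gland on each day, a coloured line for each cow and a black bar for the mean of 6 cows; every panel spans the same range. In the 2× glands of d 21, cows 1 and 6 stand highest for PSMB9 (9.04 and 8.77), PSMB10 (9.17 and 8.87), PSME1 and PSME2.

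Cow 1 contributed the most to the immunoproteasome difference of d 21. The mean 4× minus 2× difference over the 5 genes was -0.72, -0.10, -0.25, -0.17, 0.15 and -0.28 in cows 1 to 6, or -0.23 ± 0.29 (SD, n = 6), and it was -0.13 without cow 1. The mean over the 26 constitutive subunits was -0.11, 0.13, -0.16, 0.05, 0.11 and -0.11 in the same cows, or -0.02 ± 0.13. The immunoproteasome mean minus the constitutive mean was -0.21 ± 0.22 (-0.13 without cow 1) and was negative in 5 of 6 cows.

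Markers of leukocytes and of the interferon response were read beside that difference. The mean over the 18 leukocyte markers measured was lower in the 4× glands on d 21, with a difference of -0.18 ± 0.13 (SD, n = 6), and of -0.39 in cow 1. The level of this mean was between 6.95 and 7.28 in the 4× glands and between 7.03 and 7.46 in the 2× glands. Of these, 6 had a lower and 1 a higher value at the unadjusted threshold (15.9% of all probe sets passed), with TYROBP, an adaptor of myeloid receptors, at -0.51, and JCHAIN, which joins polymeric immunoglobulin, at -0.34 (limma, adjusted p = 0.181 for each). The marker with the higher value was CD14, at 0.42 (limma, unadjusted p = 0.0209, adjusted p = 0.232). The mean over 14 genes of the interferon response and class I antigen processing was -0.14 ± 0.20, -0.49 in cow 1 and -0.08 without cow 1. In cows 1 to 6 it was -0.49, -0.14, 0.07, -0.09, 0.02 and -0.23. The leukocyte mean was -0.39, -0.18, -0.21, -0.16, 0.01 and -0.15 in the same cows, and the immunoproteasome mean -0.72, -0.10, -0.25, -0.17, 0.15 and -0.28. Of the 14 genes, 9 had a negative and 5 a positive difference, the highest being 0.14 for IFIT2, and 2 passed the unadjusted threshold, a share near that of the array. Of these 2, ERAP2, a peptide trimming enzyme with a dim signal (mean 4.28), had a difference of -0.44 (limma, unadjusted p = 0.0093, adjusted p = 0.192) and CXCL10, an interferon-induced chemokine, one of -0.39 (limma, unadjusted p = 0.0308, adjusted p = 0.264). TAP1, which pumps peptides into the endoplasmic reticulum and was picked, after its values were seen, for its place between PSMB8 and PSMB9, had a difference of -0.22 (SE 0.13, limma, unadjusted p = 0.0937, adjusted p = 0.397). ITGAM, a myeloid integrin, was the dimmest leukocyte marker (mean 3.33). Markers of other cells differed by -0.26 ± 0.36 (5 of myoepithelium, with KRT5 lower), -0.08 ± 0.57 (5 of fibroblasts), -0.02 ± 0.32 (5 of endothelium) and -0.03 ± 0.08 (11 of milk-secreting epithelium, with KRT18 at -0.75 and BTN1A1 at 0.20). The part of leukocyte, interferon or myoepithelial genes in the immunoproteasome result was not tested.

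**Figure D2:**
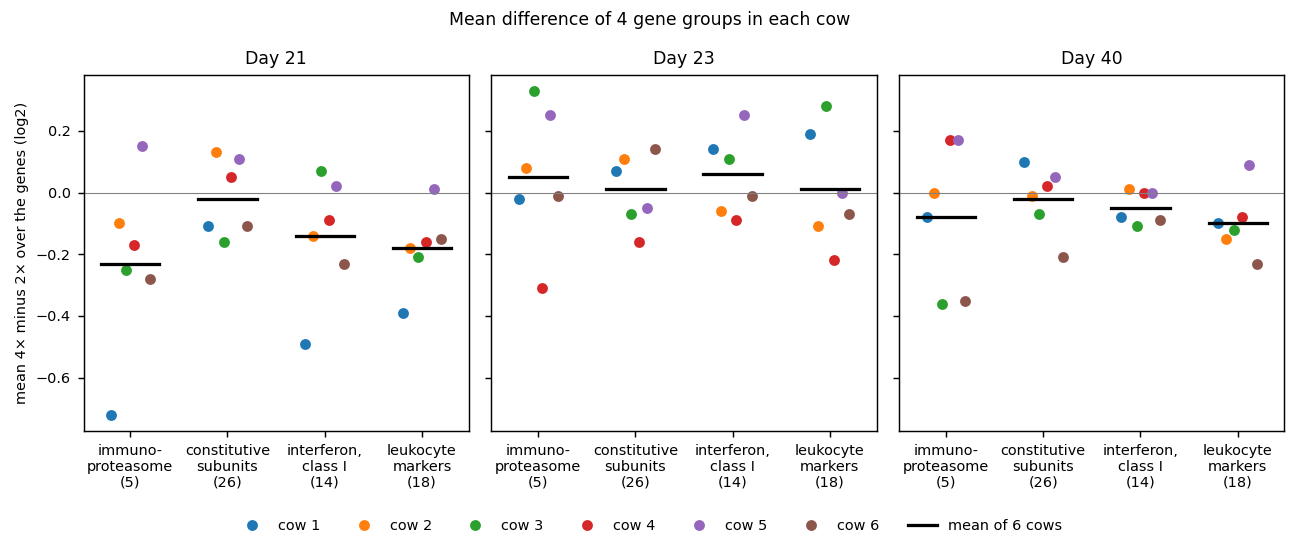
Mean 4× minus 2× difference (log2) in each of 6 cows over 5 immunoproteasome genes, 26 constitutive subunits, 14 interferon and class I genes and 18 leukocyte markers, by day, with black bars for the mean of the cows. On d 21 the immunoproteasome mean is -0.23 and cow 1 lies at -0.72, while the constitutive subunits are centred on -0.02.

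Averaged together, the constitutive subunits were close to equal in the paired glands on d 21. Of the 26, 8 had a positive and 18 a negative mean difference, with a median of -0.02, and all 26 intervals lay between -0.46 (PSMA4) and 0.33 (PSMD6), hence within 0.5 log2 units of no difference. The mean over the alpha subunits was -0.30, 0.14, -0.29, 0.01, 0.21 and -0.29 in cows 1 to 6, or -0.09 ± 0.24. It was 0.00 ± 0.09 over the beta, -0.01 ± 0.12 over the ATPase and 0.02 ± 0.10 over the non-ATPase subunits. PSMA4 differed by -0.20 (SE 0.12, limma, unadjusted p = 0.117), close to PSME1 at -0.21. One subunit passed an unadjusted p of 0.05. PSMD6, a subunit of the 19S lid, was 8.62, 8.76, 8.34, 8.71, 9.15 and 8.92 in the 4× glands, against 8.22, 8.53, 8.34, 8.58, 8.99 and 8.73 in the 2× glands. No cow had a lower value in its 4× gland, and the difference of 0.19 (SE 0.07, limma, unadjusted p = 0.0159, adjusted p = 0.211) stood beside groups that overlapped widely. It did not appear on the second probe set of PSMD6 (0.02, limma, unadjusted p = 0.802), and without cow 1 it was no longer past an unadjusted p of 0.05.

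In all, 3 of 40 proteasome genes (PSMD6 higher, PSMB10 and PSME1 lower) passed an unadjusted p of 0.05 on d 21, where 15.9% of the 24016 probe sets did so, and the share of members was thus below that of the array. No proteasome gene passed an adjusted p of 0.05 in this or any other comparison (of all probe sets, 0.0583% and 0.00416% passed it between d 21 and d 40 in the 4× and the 2× glands, and 0 in the other 8 comparisons), and none had 4× and 2× groups without overlap on any day, as 0.0546%, 0.0437% and 0.306% of all genes did on d 21, 23 and 40.

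The catalytic subunits that the immunosubunits replace did not pass the test on d 21. PSMB5, the chymotrypsin-like site, was 10.47, 10.64, 10.18, 10.67, 10.87 and 10.50 in the 4× glands and 10.07, 10.54, 10.32, 10.45, 10.75 and 10.37 in the 2× glands, with a difference of 0.14 (SE 0.08, 95% interval -0.02 to 0.30, limma, unadjusted p = 0.0811, adjusted p = 0.377). PSMB6, the caspase-like site, differed by 0.11, 0.13, -0.21, 0.12, -0.01 and 0.04 in cows 1 to 6, with a mean of 0.03. PSMB7, the trypsin-like site, differed by -0.07, 0.12, -0.10, -0.03, 0.08 and -0.48, with a mean of -0.08. The immunosubunit and its constitutive counterpart thus had differences of -0.14 and 0.14 (PSMB8 and PSMB5), -0.26 and 0.03 (PSMB9 and PSMB6) and -0.44 and -0.08 (PSMB10 and PSMB7), and these pairwise contrasts were not tested.

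**Figure D3:**
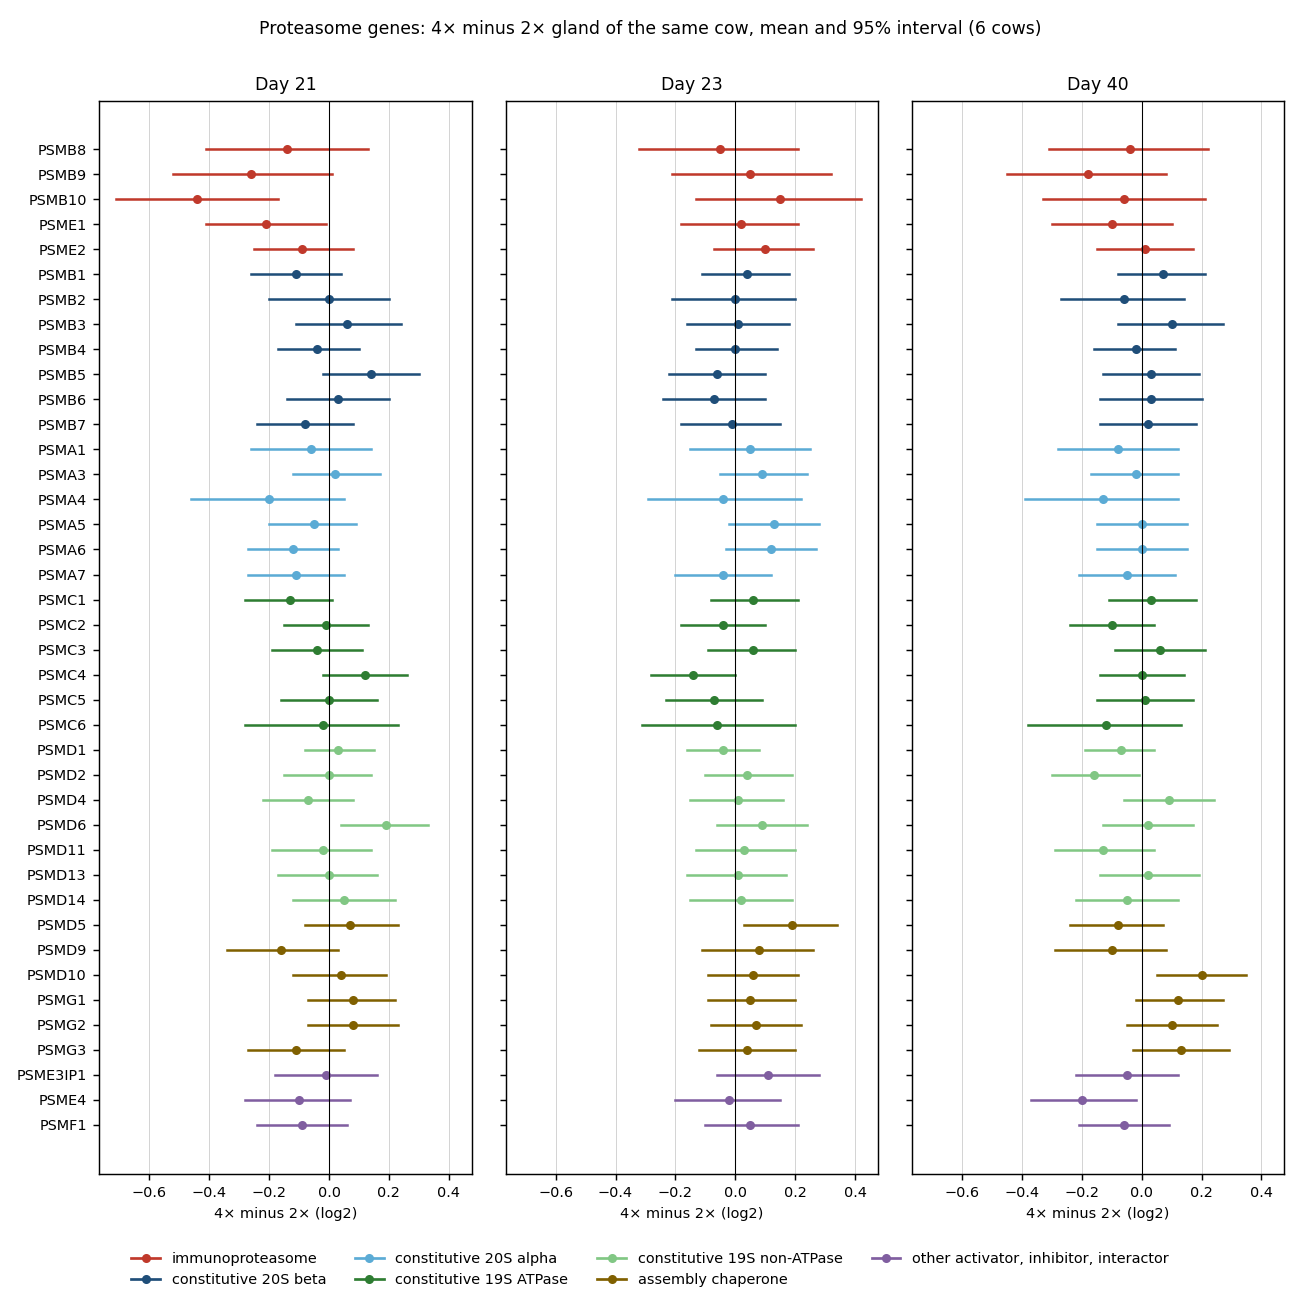
Mean 4× minus 2× difference (log2, points) with its 95% interval (lines) from limma over 6 cows for the 40 proteasome genes on d 21, 23 and 40, coloured by role in the proteasome. On d 21 the 5 immunoproteasome genes lie left of zero, led by PSMB10 at -0.44, and the 26 constitutive subunits lie between -0.20 and 0.19.

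On d 23, 2 days after 4× milking had stopped, all 40 intervals of the 4× minus 2× difference lay within 0.5 log2 units of no difference. One of 40 passed an unadjusted p of 0.05, where 2.64% of all probe sets did so. This was PSMD5, a chaperone in the assembly of the 19S base, at 9.29, 9.21, 9.18, 9.13, 9.65 and 9.10 in the formerly 4× glands, against 8.80, 9.04, 9.06, 9.25, 9.39 and 8.91 in the 2× glands. It was higher in the 4× gland of 5 of 6 cows, by 0.19 on average (SE 0.08, limma, unadjusted p = 0.0215, adjusted p = 1.0), and it lost this call without cow 1 or cow 5 and after scaling to reference genes. The next by p were PSMC4, an ATPase of the 19S base, and PSMA5, an alpha ring subunit. PSMC4 was 8.20, 8.37, 8.26, 8.22, 8.45 and 8.15 in the 4× glands and 8.48, 8.32, 8.52, 8.40, 8.50 and 8.30 in the 2× glands (difference -0.14, SE 0.07, limma, unadjusted p = 0.0512, adjusted p = 1.0). PSMA5 was 9.54, 9.44, 9.56, 9.07, 9.47 and 9.31 in the 4× glands, against 9.33, 9.19, 9.31, 9.18, 9.46 and 9.15 in the 2× glands (difference 0.13, SE 0.07, limma, unadjusted p = 0.0882, adjusted p = 1.0).

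On d 23 the mean differences of the immunoproteasome genes were small, from -0.05 to 0.15, with 4 positive and 1 negative, and none passed the test. PSMB10 was 8.13, 7.70, 7.94, 7.88, 8.15 and 8.10 in the formerly 4× glands and 8.01, 7.71, 7.32, 8.07, 7.81 and 8.12 in the 2× glands, a difference of 0.15 (SE 0.13, limma, unadjusted p = 0.281, adjusted p = 1.0). Cows differed in sign for PSMB8, from -0.65 in cow 1 and -0.44 in cow 4 to 0.58 in cow 5, and its mean was -0.05. Cow differences for PSMB9 were 0.16, 0.07, 0.63, -0.51, -0.05 and 0.02, with a mean of 0.05. The means of PSME1 and PSME2 were 0.02 and 0.10. The 4× minus 2× mean over the 5 genes was 0.05 ± 0.23 (SD, n = 6), against 0.01 ± 0.12 over the constitutive subunits. The leukocyte mean was 0.01 ± 0.19 on this day. By cow, the immunoproteasome and leukocyte differences were -0.02 and 0.19 in cow 1, 0.08 and -0.11 in cow 2, 0.33 and 0.28 in cow 3, -0.31 and -0.22 in cow 4, 0.25 and 0.00 in cow 5 and -0.01 and -0.07 in cow 6.

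The change of the 4× minus 2× difference between d 21 and d 23 was the largest for PSMB10. The difference on d 23 exceeded that on d 21 in all 6 cows, by 0.09 to 1.35, and by 0.58 on average (SE 0.19, 95% interval 0.20 to 0.97, limma, unadjusted p = 0.00485, adjusted p = 0.392). PSMA6, an alpha ring subunit, changed by 0.24 (SE 0.10, limma, unadjusted p = 0.0295, adjusted p = 0.421), with 4 of 6 cows positive, and lost this call without cow 1, 2, 3 or 6. PSMC4 changed by -0.26 (SE 0.10, limma, unadjusted p = 0.0131, adjusted p = 0.403), with no cow positive, and lost it without cow 1 or 4. These were the 3 of 40 members past an unadjusted p of 0.05, where 10.8% of all probe sets passed. The 5 immunoproteasome genes all had a positive change, from 0.08 (PSMB8) to 0.58, with a median of 0.23, but 4 of them did not pass the test. Over the cows the change of their mean was 0.28 ± 0.31, that of the constitutive mean 0.02 ± 0.18 and that of the leukocyte mean 0.19 ± 0.27. All these changes take in the 4× minus 2× differences of d 21 (-0.44 for PSMB10) and do not add to them as separate evidence. On d 23 alone PSMB10 differed by 0.15, with 3 of 6 cows positive (limma, unadjusted p = 0.281).

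On d 40, 19 days after 4× milking had stopped, other members than on d 21 passed. PSMD10 (gankyrin), a chaperone in the assembly of the 19S base, was 6.95, 7.27, 7.00, 6.92, 7.18 and 6.97 in the formerly 4× glands, against 6.73, 7.17, 6.69, 6.88, 6.94 and 6.67 in the 2× glands. It was higher in the 4× gland of 6 of 6 cows, by 0.20 (SE 0.07, limma, unadjusted p = 0.0123, adjusted p = 0.188), although it lost this call after scaling to reference genes and without cow 3. PSME4, the large activator PA200, was 7.45, 7.55, 7.38, 6.99, 7.40 and 7.26 in the 4× glands and 7.82, 7.41, 7.66, 7.14, 7.50 and 7.67 in the 2× glands. Its difference was -0.20 (SE 0.08, limma, unadjusted p = 0.029, adjusted p = 0.213), lower in 5 of 6 cows.

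PSMD2, a large scaffold subunit of the 19S base, was 9.43, 9.34, 9.35, 9.12, 9.55 and 9.15 in the formerly 4× glands on d 40, against 9.66, 9.37, 9.48, 9.22, 9.61 and 9.55 in the 2× glands. It was lower in the 4× gland of all 6 cows, with a mean difference of -0.16 (SE 0.07, limma, unadjusted p = 0.0375, adjusted p = 0.226). PSMD2 and PSME4 each lost the call without cow 1, 3 or 6. Hence 3 of 40 members passed an unadjusted p of 0.05 on d 40 (1 higher, 2 lower), where 20.4% of all probe sets passed.

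The immunoproteasome genes did not pass the test on d 40. Their differences were -0.04 (PSMB8), -0.18 (PSMB9), -0.06 (PSMB10), -0.10 (PSME1) and 0.01 (PSME2), and their mean was -0.08 ± 0.24 (SD, n = 6) against -0.02 ± 0.11 for the constitutive subunits. Cows 3 and 6 had the lowest means (-0.36 and -0.35), and cows 4 and 5 the highest (0.17 each). PSMB10 was 8.37, 7.91, 7.54, 7.97, 7.96 and 8.06 in the formerly 4× glands and 8.47, 7.84, 7.95, 7.76, 7.81 and 8.33 in the 2× glands. The constitutive catalytic subunits PSMB5, PSMB6 and PSMB7 differed by 0.03, 0.03 and 0.02 on d 40 and by -0.06, -0.07 and -0.01 on d 23. PSMF1 (PI31), a binding protein of the core, differed by -0.09, 0.05 and -0.06 on d 21, 23 and 40, with cow values between -0.34 and 0.23. The leukocyte mean differed by -0.10 ± 0.11 on d 40, and 3 of its 18 markers had a lower value at the unadjusted threshold, where 20.4% of all probe sets passed.

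Between d 21 and d 23 the members were also compared within each side of the udder. In the 4× glands 0 of 40 passed an unadjusted p of 0.05 (3.8% of all probe sets passed), and in the 2× glands 7 of 40 did (16.1% of all probe sets), close to the share of the array. The smallest p in the 4× glands belonged to PSMA5 (0.13), PSMD5 (0.13) and PSMC3 (0.11), the last an ATPase of the 19S base (limma, adjusted p = 0.999 for each). In the 2× glands PSMC4 was 8.48, 8.32, 8.52, 8.40, 8.50 and 8.30 on d 23, against 7.98, 8.18, 8.18, 8.13, 8.29 and 8.21 on d 21, and it was the only member whose days did not overlap (0.142% of all genes). It was higher on d 23 in 6 of 6 cows, by 0.26 (SE 0.07, limma, unadjusted p = 0.00105, adjusted p = 0.168).

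Among the catalytic subunits and immunosubunits, 2 of each class passed in the 2× glands. PSMB5 was higher on d 23 in 6 of 6 cows, by 0.27 (limma, unadjusted p = 0.0112, adjusted p = 0.208), and PSMB6 in 5 of 6 cows, by 0.21 (limma, unadjusted p = 0.048, adjusted p = 0.304). PSMB10 was lower on d 23 in 4 of 6 cows, with a difference of -0.44 (SE 0.13, limma, unadjusted p = 0.00236, adjusted p = 0.168), as was PSMB9 with -0.39 (SE 0.13, limma, unadjusted p = 0.0048, adjusted p = 0.178). The remaining member of each class, PSMB7 and PSMB8, differed by 0.06 each (limma, unadjusted p = 0.521 and 0.678). PSME4 (-0.22) was lower in 3 of 6 cows and PSMD9, another chaperone of the 19S base (-0.17), in 4 of 6 (limma, adjusted p = 0.262 and 0.301). The call was lost without cow 1 for PSMB9, without cow 3 for PSMB5, without cow 1 or 6 for PSME4, without cow 1, 3 or 6 for PSMD9 and without any of cows 1 to 5 for PSMB6, while PSMC4 and PSMB10 kept it without any single cow. PSMB6 and PSMD9 also lost the call after centring on the array median. PSMD9 lost it after scaling to reference genes and under trend and robust moderation as well. Of 14 interferon and class I genes 5 were lower, and of 18 leukocyte markers 4 were lower and 1 was higher, at an unadjusted p under 0.05 in this comparison, where 16.1% of all probe sets passed. These differences share the 2× arrays of d 21 with the 4× minus 2× differences of that day and do not add to them as separate evidence.

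From d 21 to d 40, when both biopsies came from rear glands, 3 of 40 members passed an unadjusted p of 0.05 in the 4× glands (8.68% of all probe sets) and 2 in the 2× glands (6.79%). In the 4× glands PSME4 was lower on d 40, with a difference of -0.26 (limma, unadjusted p = 0.0105, adjusted p = 0.456). PSMB1, a non-catalytic beta subunit, and PSMG3, a chaperone of the 20S core, were higher by 0.16 and 0.19 (limma, unadjusted p = 0.0394 and 0.0426, adjusted p = 0.542 and 0.549). The call was lost without cow 4 for each of these 3, without cow 1 for PSMB1 and PSMG3, and without cow 6 for PSME4 and PSMG3. PSMB1 and PSMG3 also lost it after scaling to reference genes and after centring on the array median. In the 2× glands PSMB9 was lower on d 40, with a difference of -0.30 (limma, unadjusted p = 0.0253, adjusted p = 0.665) and PSMD5 higher by 0.17 in 6 of 6 cows (limma, unadjusted p = 0.0397, adjusted p = 0.711), and the call was lost without cow 1, 2 or 6 for PSMB9 and without cow 1 or 3 for PSMD5. PSMD5 also lost it after scaling to reference genes. PSMB10, the next by p, differed by -0.25 (limma, unadjusted p = 0.0651). These 2× differences also share the 2× arrays of d 21 with the 4× minus 2× differences of that day. They do not add to them as separate evidence. Between d 23 and d 40, 1 member passed in the 2× glands (PSMA1, an alpha ring subunit, 0.22, limma, unadjusted p = 0.0387, lost without cow 1, 2, 3 or 6, with 8.08% of all probe sets past the threshold) and 0 in the 4× glands (6.55%).

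**Figure D4:**
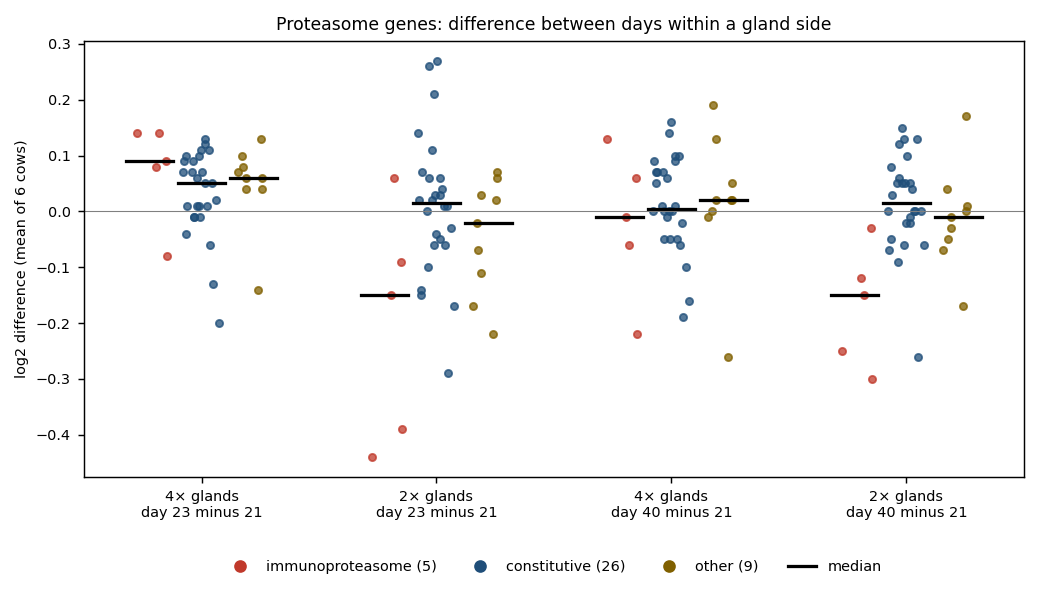
Log2 difference between days within the 4× or the 2× glands (mean of 6 cows) for 5 immunoproteasome genes, 26 constitutive subunits and 9 other members, 1 point for each gene and a black bar for the median. In the 2× glands the immunoproteasome median is -0.15 for d 23 minus d 21 and -0.15 for d 40 minus d 21, against 0.09 and -0.01 in the 4× glands. Both medians of the 2× glands use the same 2× arrays of d 21.

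Over the 6 groups, the 2× glands of d 21 held the highest group mean of PSMB9 (8.36), PSMB10 (8.28) and PSME1 (10.60). The mean level over the 5 immunoproteasome genes was 8.76, 8.55, 8.61, 8.69, 8.69 and 8.95 in the 4× glands and 9.48, 8.65, 8.86, 8.86, 8.53 and 9.23 in the 2× glands of cows 1 to 6 on that day. Cows 1 and 6 exceeded 9.2 there, and the highest value elsewhere was 9.11 (2×, d 23, cow 4). The SD between cows was 0.14 in the 4× glands and 0.36 in the 2× glands of d 21. For PSME2 the highest group mean was that of the 4× glands of d 23 (8.67) and for PSMB8 that of the 2× glands of d 23 (8.84), so that the 5 genes did not share 1 order of groups.

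The cows differed in the level of the constitutive subunits. Averaged over the 6 arrays of a cow, 21 of the 26 constitutive subunits were highest in cow 5, as were 20.6% of all genes, and 13 were lowest in cow 4, as were 13.5% of all genes. The constitutive mean lay 0.18 log2 units above the mean of the cows in cow 5 and at -0.12 in cow 4. Other genes were high in cow 5 as well. Of all 40 members 26 were highest there. The mean over the 5 reference genes in cow 5 exceeded the group mean in each of the 6 groups (10.84 against 10.66 in the 4× glands of d 21). The part of this shared level in the constitutive order was not tested. The immunoproteasome genes followed another order: PSMB9, PSMB10, PSME1 and PSME2 were highest in cow 1, PSMB8 was highest in cow 4, and none was highest in cow 5. PSMB9 averaged 8.40 in cow 1 and 7.65 in cow 2, and PSMC6 averaged 7.58 in cow 5 and 6.78 in cow 4. Genes of 1 complex measured on the same arrays share each array's scaling, and these orders are a description of 6 animals.

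**Figure D5:**
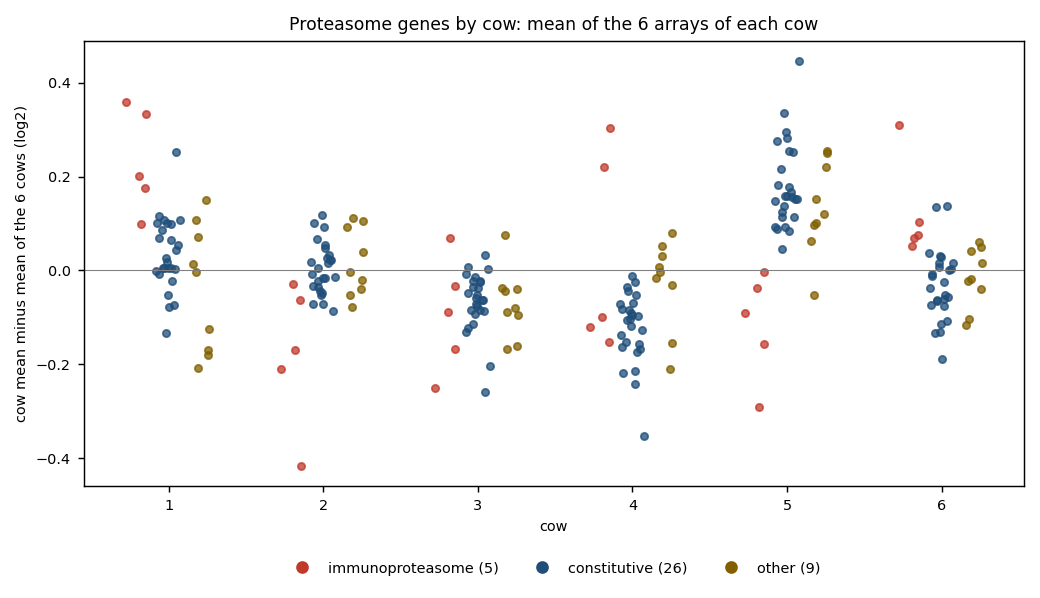
Mean log2 signal of the 6 arrays of each cow minus the mean of the 6 cows, 1 point for each of 5 immunoproteasome genes, 26 constitutive subunits and 9 other members. Cow 5 lies above the mean for the constitutive subunits (0.18 on average) and below it for the immunoproteasome genes (-0.12 on average), and cow 1 lies highest for the immunoproteasome genes (0.24 on average).

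The other genes of the pathway were read from lists of genes, each with the same choice of probe set. Of all probe sets, 15.9%, 2.64% and 20.4% passed an unadjusted p of 0.05 on d 21, 23 and 40. Of 8 genes for assembly factors and bound enzymes, none passed an unadjusted p of 0.05 on d 21, 1 was lower on d 23 (UBE3C, a ubiquitin ligase on the proteasome, -0.21, limma, unadjusted p = 0.0227, adjusted p = 1.0) and 1 was lower on d 40 (AKIRIN2, which brings proteasomes into the nucleus, -0.21, limma, unadjusted p = 0.0153, adjusted p = 0.193). Of 8 genes for ubiquitin and substrate delivery, UBQLN2, a shuttle of ubiquitinated proteins, was lower on d 21 (-0.23, limma, adjusted p = 0.239), none passed on d 23, and UBA1, the main ubiquitin-activating enzyme (-0.19), and RAD23B, another shuttle (-0.20), were lower on d 40 (limma, adjusted p = 0.208 and 0.226).

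A list of regulators of proteasome genes held 6 measured genes, of which 4 passed the unadjusted threshold on d 40 with a lower value in the formerly 4× glands (20.4% of all probe sets passed) and 0 passed the adjusted one. These were MAFG, a partner of NRF factors, at -0.26 (limma, unadjusted p = 0.00767, adjusted p = 0.18), NFE2L2 (NRF2), the factor of the oxidative stress response, at -0.37 (limma, unadjusted p = 0.0101, adjusted p = 0.183), NFE2L1 (NRF1), which drives proteasome genes when proteasomes are inhibited, at -0.24, and HMOX1, a heme-degrading enzyme and target of NRF2 rather than a regulator, at -0.42 (limma, adjusted p = 0.204 and 0.199). KEAP1, which holds NRF2 back, was at -0.19 and MAFF, another partner of NRF factors, at 0.05, and neither passed. The mean difference over the 6 genes, KEAP1 and HMOX1 included, was -0.24 ± 0.23 (SD, n = 6). Of the 26 constitutive subunits, 13 had a positive and 13 a negative difference on that day. A link between this list and the subunits was not tested. On d 21 NFE2L2 was lower, with a difference of -0.32 (limma, unadjusted p = 0.0213, adjusted p = 0.233), and the 5 other genes of the list did not pass (15.9% of all probe sets passed).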

How the data were processed

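Mammary RNA of 36 biopsies was hybridised to Affymetrix bovine genome arrays. The deposited values are RMA (Robust Multichip Average) signals made by the authors, on a log2 scale with 1 value for each probe set and array, and were used unchanged. Of 24128 probe sets, 112 controls were left out, and 24016 were tested. Array medians lay between 6.04 and 6.15. The number of arrays limits the precision.

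Groups and cow numbers came from the labels, which name the cow of each array. The 4× minus 2× difference was fitted on the 18 within-cow differences (limma 3.58.1, R 4.3.3), giving each day its own mean and all days a common spread. Days within a gland side were compared over all 36 arrays, with the cows as blocks. The glands of a pair came from the same cow, and after removal of group means their arrays correlated positively in 18 of 18 pairs (0.242 to 0.665). P-values were adjusted by the method of Benjamini and Hochberg over all 24016 probe sets with a threshold of 0.05, and the unadjusted threshold of 0.05 was read beside it. Whether a gene was "higher" or "lower" in a count refers to the unadjusted threshold. The fits were also run on simulated data with noise drawn as independent normal values, which hold no correlation between genes, and no result here rests on that run. Intervals cover 95%.

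By the array annotation 13318 probe sets had 1 symbol, 86 had more than 1 and 10724 were unnamed. All 40 members matched RefSeq names (ARS-UCD2.0), and 6 members had 2 probe sets. The members and gene lists were chosen with earlier results of these data known. Any member could be named, with values by cow for the immunoproteasome genes, for the constitutive catalytic subunits and PSMF1 on d 21, and for the 3 members with the smallest unadjusted p of each day. From the other lists the 2 genes with the smallest unadjusted p on a day could be named. TAP1, IFIT2, NFE2L1, HMOX1, KEAP1, MAFF, CD14 and ITGAM were named beyond this rule, after their values were seen. The lists measured were 8 of 10 assembly factors and bound enzymes, 6 of 9 regulators, 8 of 14 genes for ubiquitin and substrate delivery, 14 of 24 interferon and class I genes, 18 of 22 leukocyte, 11 of 12 epithelial, 5 of 5 endothelial, 5 of 5 fibroblast and 5 of 5 myoepithelial markers. Alternatives were no replicate block, scaling to 5 reference genes, centring on the array median, trend and robust moderation, dim probe sets left out, the mean of a gene's probe sets, each day separately, and each cow left out. Pandas 2.3.3, numpy 2.4.6 and matplotlib 3.10.9 in Python 3.11.15 were used for tables and plots.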

Additional observations from a re-analysis of the deposited data

Results flagged for a closer look

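In 126 sets of 6 cow differences (the 40 members and the immunoproteasome and constitutive means on each day), the highest or lowest cow stood apart from the others by Dixon's criterion at 95% in 15, where chance gives about 5%. Of these, 7 belonged to cow 1, 5 to cow 6, 2 to cow 3 and 1 to cow 4. On d 21 the 4× minus 2× difference stood apart in cow 1 for PSMB4 (-0.22), PSME4 (-0.50) and PSMG1 (0.34), in cow 3 for PSMB3 (-0.30) and PSMD1 (-0.05), and in cow 6 for PSMB7 (-0.48). On d 23 it stood apart in cow 1 for PSMG3 (0.49). On d 40 it stood apart in cow 1 for PSMA1 (0.13), PSMB5 (0.38) and PSMG1 (0.51), in cow 4 for PSMD4 (0.45), and in cow 6 for PSMB4 (-0.27), PSMC5 (-0.38), PSMD9 (-0.45) and PSMD13 (-0.23). None of the immunoproteasome genes was among these, although PSMB10 had its lowest value on d 21 in cow 1 (-1.23).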

How the results depend on the processing

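Of the 23 calls of members at an unadjusted p of 0.05 over the 10 comparisons, 4 held under every alternative: PSMB10 on d 21, the change of PSMB10, and PSMB10 and PSMC4 between d 21 and d 23 in the 2× glands, all of which use the 2× arrays of d 21. No member passed an adjusted p of 0.05 under any alternative, the smallest being 0.0916. With no replicate block the count of members was 1, 0 and 0 for 4× minus 2× on d 21, 23 and 40 (in place of 3, 1 and 3), 1 and 0 between d 21 and d 40 in the 4× and 2× glands, and 3 between d 21 and d 23 in the 2× glands. Counts over all 24016 probe sets fell as well. With no replicate block 879 were higher and 979 lower on d 21 (1927 and 1899 in the main fit). On d 23 they were 130 and 147 (333 and 302), and on d 40 1949 and 983. Between d 21 and d 40 they were 504 and 667 (826 and 1259) in the 4× and 322 and 559 (736 and 895) in the 2× glands. Between d 21 and d 23 in the 2× glands they were 1081 and 1286 (1801 and 2077). Scaling to reference genes gave 0 on d 23 (of all probe sets, 107 higher and 226 lower) and 1 between d 21 and d 40 in the 2× glands (475 and 563). Centring on the array median gave 2 on d 23 (of all probe sets, 295 higher and 332 lower) and 1 between d 21 and d 40 in the 4× glands (693 and 1409). Trend and robust moderation gave 2 on d 23 (of all probe sets, 309 higher and 307 lower). On d 40, 2783 of all probe sets were higher and 2127 lower in the main fit, but 629 were higher and 2770 lower after scaling to reference genes and 1758 and 2941 after centring. The cause of these shifts was not tested.

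Leaving out 1 cow gave 1 to 5 members on d 21 (1 without cow 1), 0 to 2 on d 23, 0 to 4 on d 40 (0 without cow 3), 1 to 5 for the change (1 without cow 1), 0 to 1 and 1 to 4 in the 4× glands for d 23 and d 40 minus d 21, and 3 to 9 (3 without cow 1) and 0 to 4 (0 without cow 1) in the 2× glands. Of all probe sets, 765 were higher and 804 lower on d 21 without cow 1. For the change they were 649 and 544 without cow 1 (1356 and 1237 in the main fit). In the 2× glands without cow 1 they were 648 and 795 for d 23 minus d 21, and 418 and 624 for d 40 minus d 21. On d 40 without cow 3 they were 1922 and 1217. The immunoproteasome mean minus the constitutive mean, 4× minus 2×, lay between -0.26 and -0.13 on d 21, between -0.03 and 0.08 on d 23 and between -0.09 and -0.01 on d 40. Small differences turned sign, within ranges over the cows left out of -0.18 to 0.06 (PSMB8), -0.06 to 0.17 (PSMB9) and -0.03 to 0.07 (PSME1) on d 23 and of -0.13 to 0.01 (PSMB8), -0.11 to 0.01 (PSMB10) and -0.02 to 0.06 (PSME2) on d 40: PSME1 on d 23 (-0.00022 after scaling to reference genes, and -0.03 and -0.0075 without cows 5 and 6), PSME2 on d 40 (-0.03 after scaling, -0.02 after centring, and -0.01, -0.0075, -0.02 and -0.02 without cows 1, 2, 4 and 5), PSMB8 on d 23 (0.06 and 0.02 without cows 1 and 4) and on d 40 (0.0075, 0.0011 and 0.01 without cows 1, 3 and 6), PSMB9 on d 23 (-0.06 without cow 3) and PSMB10 on d 40 (0.01 without cow 3). The second probe sets of PSMB2, PSMC2, PSMC5, PSMC6, PSMD4 and PSMD6 passed on no day.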
